A study of Mus musculus with 24 samples.

Results

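Long intergenic noncoding RNAs (lincRNAs) were described in mouse kidneys that had been obstructed and then released. The members were the rows that the deposited table types as lincRNA, 351 of 14785 genes. They were taken by type alone, from a table that holds only genes averaging at least 1 FPKM as deposited. The study took kidneys of male C57/BL6 mice (a common inbred strain, aged 8 to 9 weeks at the start) in the reversible unilateral ureteral obstruction model, in which one ureter is tied and can later be reimplanted. The 6 groups of 4 mice were a sham operation, 2 days of obstruction (UUO2), 7 days of obstruction (UUO7), and 7 days of obstruction followed by 1, 2 or 4 weeks after reversal (R1W, R2W and R4W). No genotype or drug differed between them, and the mice were a selection of 4 out of 10 per group. Libraries were made from polyadenylated RNA of kidney tissue, cortex by the series' title, so that a lower level could reflect fewer cells of a type or less RNA per cell, which cannot be told apart here. Levels are FPKM (fragments per transcript length and sequencing depth) rescaled so that the median gene is equal between libraries, called rescaled FPKM. Fold changes are on the scale of log2(rescaled FPKM + 1), which understates changes of low genes, and a gene was called at an adjusted p under 0.05 (limma, Benjamini-Hochberg over all 14785 genes).

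A lincRNA is an RNA polymerase II transcript, usually capped, spliced and polyadenylated, that lies between protein-coding genes and holds no long reading frame. A few have known roles: some build nuclear bodies, some are processed into microRNAs or small nucleolar RNAs (snoRNAs), and some act on the gene beside them. In the kidney, most have no described function, and many are made by one cell type only.

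Several libraries stood apart before any comparison was made. The UUO2 libraries carried a separate set of sample numbers, and the design text counts 20 libraries where the series holds 24. Their 2 mitochondrial ribosomal RNA rows summed to between 4602 and 5819 rescaled FPKM, against 401 to 1326 in the other 20 libraries. The labels name no batch, and whatever sets these 4 libraries apart cannot be told apart from the 2 day time point in any UUO2 comparison. The title of R4W replicate 2 says 4 weeks and its treatment label 2 weeks, and the title was followed. Adipocyte markers summed to 1479 in R4W replicate 1, 361 in R4W replicate 3 and 323 in sham replicate 2, against at most 169 in the other libraries.

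Sequences are shown first for the members whose product or start is known. Mir17hg and Mir142hg are precursors of microRNAs, short RNAs that silence messages through their seed, bases 2 to 8, given in capitals (RefSeq, GRCm38.p6). The table measures the host transcript and not these products. The 6 shown from Mir17hg lie on the plus strand between chr14:115043684-115043706 (miR-17-5p) and chr14:115044476-115044496 (miR-92a-3p), and 2 pairs of them share a seed. The 2 from Mir142hg lie at chr11:87756867-87756887 (5p) and chr11:87756903-87756925 (3p), also on the plus strand.
mmu-miR-17-5p: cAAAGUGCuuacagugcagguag
mmu-miR-20a-5p: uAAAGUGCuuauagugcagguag
mmu-miR-19a-3p: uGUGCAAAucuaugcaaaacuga
mmu-miR-19b-3p: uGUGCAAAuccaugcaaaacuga
mmu-miR-18a-5p: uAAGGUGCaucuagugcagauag
mmu-miR-92a-3p: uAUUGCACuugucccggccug
mmu-miR-142a-5p: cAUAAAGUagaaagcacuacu
mmu-miR-142a-3p: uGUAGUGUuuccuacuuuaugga

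Transcripts that host snoRNAs often begin inside a run of pyrimidines, a feature shared with ribosomal protein messages. Of the 7 members on the list of snoRNA hosts, 5 had an entry in the RefSeq promoter table (GRCm38.p6), which held 175 of all members. The 30 bases around the annotated start of the 5 are given, which show that 2 of them start inside a run and 3 do not, with the start at the 11th base and any pyrimidine run that holds it in capitals. Snhg12 (plus strand, chr4:132308668-132308697) had a run of 9 and Snhg18 (minus strand, chr15:32244643-32244672) a run of 10. Snhg20 (plus strand, chr11:117076773-117076802), Dancr (plus strand, chr5:74093050-74093079) and Snhg10 (minus strand, chr12:105032260-105032289) had no run there. A run of at least 5 holding the start was present in 10.1% of the 32851 promoter windows in the table.
Snhg12: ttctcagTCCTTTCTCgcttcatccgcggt
Snhg18: cccaggCCCCTCCTCTagccccgcctcttc
Snhg20: gttccggccggaagtgcatttgcagagctg
Dancr: ctcggggggggggggcagctccgcccctct
Snhg10: ggttccttttgcggtgattgctacggtaac

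Most members were low. Their mean over the 24 libraries had a median of 2.65 rescaled FPKM, against 12.3 for protein-coding genes, and 133 of 351 averaged under 2. Over the 24 libraries 9 members averaged 100 or more, among them Neat1 (772), AY036118 (480), AC153954.2 (443) and Malat1 (336). These means pool unlike groups: Malat1 was at 129 to 280 outside the 2 day group, and AY036118 reached 2040 in a single R4W library. Members made up between 0.491% and 0.947% of the summed FPKM of a library. By the GENCODE vM21 annotation, which held 349 of them, 53 had a single exon and the longest transcript had a median of 1301 bases. The span of a coding gene was overlapped by 57 members, 46 of them on the opposite strand, and 106 more lay within 5 kb of one. The sources used here do not say whether counting used strand, so reads of overlapping pairs cannot be told apart.

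After 7 days of obstruction, 246 of 351 members differed from sham, 113 higher (36.5% of all genes were higher) and 133 lower (36.5%), where 73.0% of all genes were called. The median member changed by -0.07 on the log2 scale, against 0.01 over all genes. On the values as deposited, which put the median gene 0.42 higher at 7 days, the members' split was 170 higher and 81 lower. Of all genes, 8880 were higher and 2632 lower on that scale. At 2 days, 183 members differed from sham, 53 higher (25.3% of all genes) and 130 lower (25.5%), where 50.8% of all genes were called, and the median member changed by -0.21 against -0.01. On the deposited scale that split was 60 and 92, where 4772 of all genes were higher and 2507 lower. The other noncoding class of similar size, antisense RNAs, had 42 of 314 higher and 106 lower at 2 days. Between 2 and 7 days 205 members were called, 125 higher at 7 days (30.0% of all genes) and 80 lower (31.9%), with 62.0% of all genes called. The deposited scale gave 173 and 51, where 7686 of all genes were higher and 2169 lower. Over the 7 comparisons made, 28 members were called in none, and the share called in at least 1 was 92.0% of members and 92.2% of all genes.

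**Figure D1:**
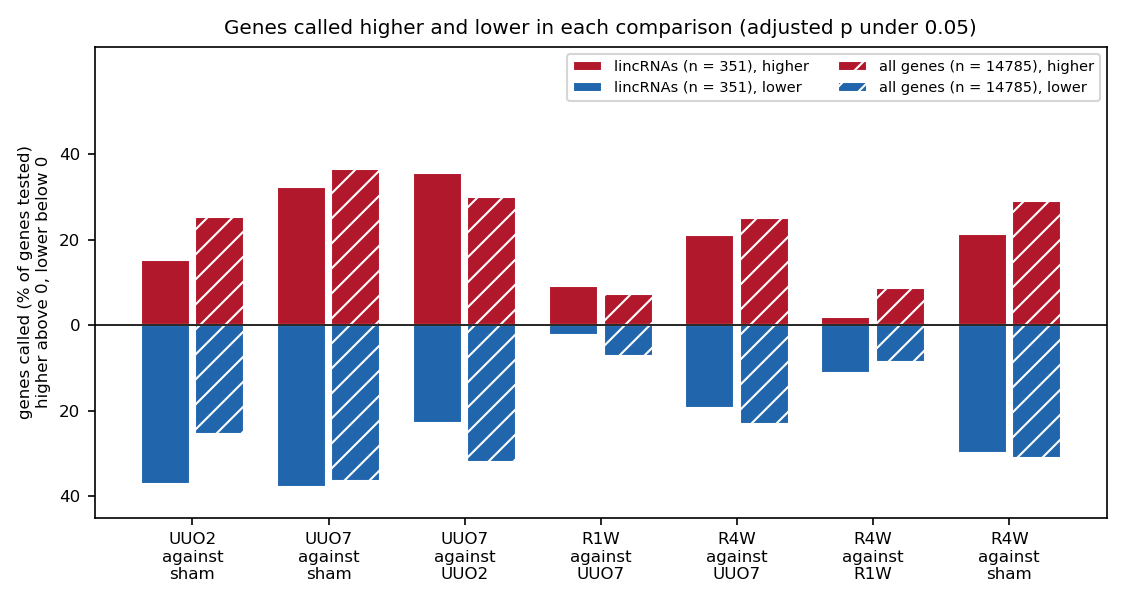
Percent of 351 lincRNAs (plain bars) and of all 14785 genes (hatched bars) called higher (red, above 0) or lower (blue, below 0) in each of 7 comparisons. At 2 days 53 lincRNAs were higher and 130 lower than sham, and at 7 days 113 were higher and 133 lower.

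Falls and rises were ranked among called members whose groups did not overlap and whose mean over both groups was at least 5. The lack of overlap of members named this way was thus set by the choice, low members could not be named, and the log2(rescaled FPKM + 1) scale also shrinks their changes. D630029K05Rik (chr10:116964707-116969105, plus strand), a spliced transcript with no described function, stood at 171, 141, 161 and 157 rescaled FPKM in sham. It stood at 16.6, 33.3, 12.5 and 13.0 at 2 days and at 12.7, 15.2, 11.8 and 10.8 at 7 days. No obstructed library reached the lowest sham library. The change was -3.55 at 7 days (SE 0.28, adjusted p = 1.2e-09, limma with Benjamini-Hochberg adjustment) and -3.11 at 2 days (SE 0.28, adjusted p = 2.9e-08, limma). The RefSeq promoter table (GRCm38.p6) holds 2 windows for it. The one at the upstream start (chr10:116964490-116964789, plus strand) is given because D630029K05Rik had the largest fall of the 351 members at 7 days on this scale, with capitals for matches to TATAAA, which 13.6% of all windows hold, and CCAAT, which 37.4% hold, on either strand. The other window (chr10:116966024-116966323, plus strand) holds no TATAAA, 1 CCAAT and 1 match to the interferon response element, which 3.44% of all windows hold. A match is a description of the letters and not a site.
D630029K05Rik: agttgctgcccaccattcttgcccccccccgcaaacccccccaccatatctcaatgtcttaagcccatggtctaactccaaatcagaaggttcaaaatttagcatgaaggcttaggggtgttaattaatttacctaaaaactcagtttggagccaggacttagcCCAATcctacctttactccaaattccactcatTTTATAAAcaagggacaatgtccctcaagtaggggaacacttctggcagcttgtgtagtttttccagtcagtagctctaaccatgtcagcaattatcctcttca

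Other members fell with it. AC153937.2 (named Gm47708 in vM21, chr10:95730183-95739356, plus strand) and 1110019B22Rik (chr10:95719133-95722500, minus strand) lie beside each other on opposite strands, and neither has a described function. AC153937.2 stood at 21.8, 20.2, 21.3 and 27.4 in sham and at 1.26, 2.20, 1.59 and 1.70 at 7 days. For 1110019B22Rik the levels were 8.10, 8.88, 8.72 and 11.1 in sham and 1.34, 0.815, 1.99 and 1.07 at 7 days. The groups did not overlap for either one, and the changes were -3.14 (SE 0.28, adjusted p = 4.4e-09, limma) and -2.16 (SE 0.23, adjusted p = 5.9e-08, limma).

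Gm4208 (chr1:62821355-62832370, minus strand) lies 2660 bases from Nrp2, which encodes a receptor for semaphorins and lymphatic growth factors, and moved against it. Its level went from 15.4, 7.63, 12.1 and 9.16 in sham to 1.01, 1.33, 0.781 and 0.676 at 7 days, with no overlap, a change of -2.60 (SE 0.34, adjusted p = 7.0e-07, limma). Nrp2 changed by 1.47 (adjusted p = 1.1e-08, limma). Tmem61, which this table types as a lincRNA, lies 6533 bases from Bsnd, which encodes a subunit of the chloride channels of the thick limb and the intercalated cells. Tmem61 went from 9.26, 6.60, 7.29 and 7.96 to 0.775, 1.51, 1.47 and 1.08 (-1.99, SE 0.20, adjusted p = 1.7e-08, limma), and Bsnd changed by -1.95 (adjusted p = 2.1e-06, limma). Tmem61 and Bsnd were thus both low at 7 days, whereas Gm4208 and Nrp2 went in opposite directions.

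Gm10804 (chr2:93452819-93469871, plus strand) overlaps Cd82, a tetraspanin gene on the other strand. It stood at 123, 70.8, 118 and 106 in sham and at 28.6, 28.6, 19.5 and 19.9 at 7 days, with no overlap, and changed by -2.06 (SE 0.26, adjusted p = 5.9e-07, limma). Cd82 changed by 0.48 (adjusted p = 0.0020, limma). Further members without a described function were lower at 7 days by limma, on the log2 scale: AC159622.2 changed by -2.68, AC153370.2 by -2.48, 0610006L08Rik by -2.39, Gm12678 by -2.32 and Gm15889 by -2.11. On the deposited scale the falls of the members named so far ranged from -3.08 (D630029K05Rik) to -1.59 (Gm10804).

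Tubule markers were read beside these falls. All 7 proximal tubule markers measured were lower at 7 days, and their summed level was 6010 to 7938 rescaled FPKM in sham, 2607 to 3902 at 2 days and 1148 to 1569 at 7 days. None of the 7 was at 0 in any library. The 3 distal and connecting tubule markers summed to 602 to 726 in sham and 122 to 162 at 7 days, where Pvalb was at 0 in at least 1 library. Within the 2 day group, replicate 2 had the highest distal sum (323), the highest proximal sum (3902) and the highest Tmem61. Tmem61 stood at 1.56, 4.54, 1.41 and 1.40 in the 4 libraries. Gm4208 (3.00) and Gm27202 (5.98) were also highest in replicate 2, and 1 library cannot tell these apart. The 4 thick limb markers did not all move one way: 3 were lower and 1 higher at 7 days, and their sum was 2299 to 2592 in sham, 795 to 1729 at 2 days and 975 to 1199 at 7 days. All 4 collecting duct markers were lower at 7 days, and their sum was 310 to 759 in sham, 232 to 642 at 2 days and 87.1 to 133 at 7 days. The part of tubule content in these falls was not tested.

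**Figure D2:**
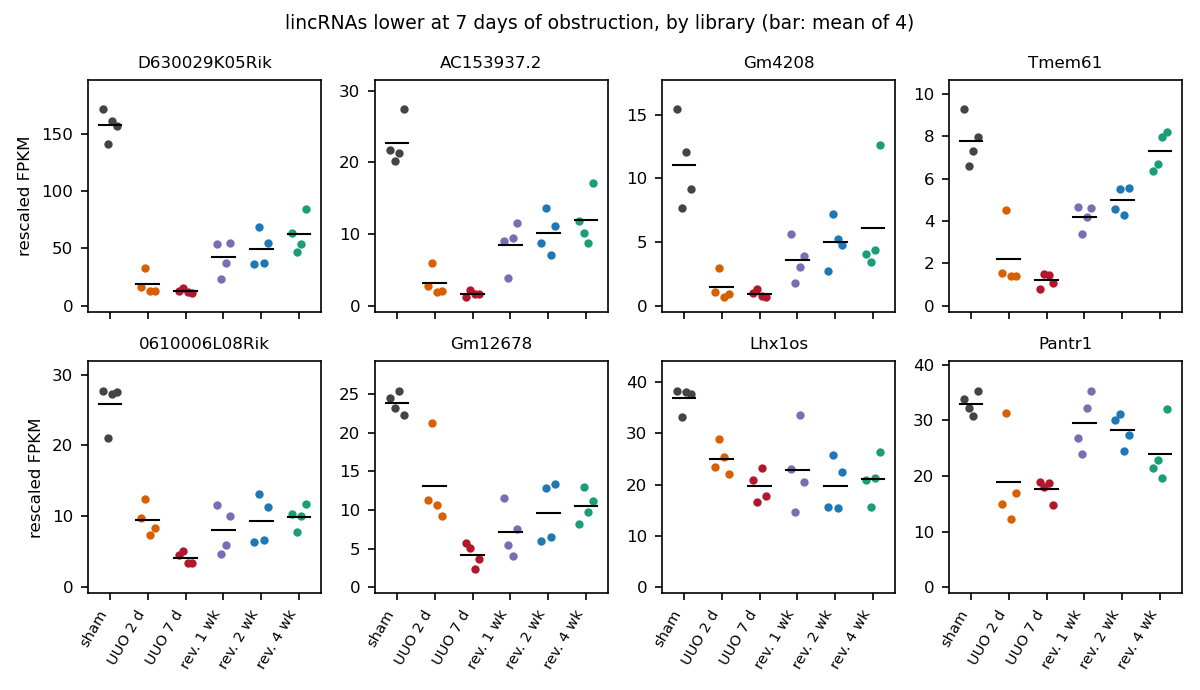
Rescaled FPKM (linear axes from 0) of 8 lincRNAs in the 4 libraries of each of 6 groups, with a bar at the group mean. In all 8 the 7 day libraries lie under every sham library, and D630029K05Rik goes from between 141 and 171 to between 10.8 and 15.2.

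AW112010, AU020206, Mir142hg and Gm14005, members known from immune cells, were higher at 7 days. Of 7 measured on the myeloid and lymphoid list, 6 were called higher and none lower, where 36.5% of all genes were higher (median 1.97 on the log2 scale, against 0.01 over all genes), but 2 of the 6, Gm42418 and Gm26917, lie at a ribosomal RNA locus and their reads cannot be told apart from ribosomal RNA. On the same list, 1810058I24Rik did not pass the test (0.12, SE 0.12, adjusted p = 0.34, limma) but was called higher on the deposited scale (0.61). AW112010, a transcript induced in activated immune cells, stood at 3.87, 5.76, 2.86 and 4.18 in sham, at 5.32, 4.22, 4.96 and 7.47 at 2 days and at 16.6, 25.1, 21.2 and 23.3 at 7 days. The 2 day and sham libraries overlapped and the 7 day libraries lay above both. The change at 7 days was 2.14 (SE 0.20, adjusted p = 1.0e-08, limma).

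AU020206 had the same order, with 2.35, 3.50, 1.99 and 2.57 in sham and 11.9, 14.3, 11.7 and 14.1 at 7 days (1.97, SE 0.17, adjusted p = 2.5e-09, limma). Mir142hg, the precursor of the blood-cell microRNA miR-142 printed earlier, stood at 0.316, 1.71, 1.81 and 0.632 in sham and at 7.26, 13.5, 14.5 and 11.2 at 7 days (2.61, SE 0.34, adjusted p = 6.9e-07, limma). Both had 7 day libraries above every sham library. Gm14005, also called Morrbid and described in short-lived myeloid cells, stood at 0, 0.506, 0.355 and 0.322 in sham, at 1.55, 0.634, 1.64 and 3.30 at 2 days and at 5.36, 5.59, 4.30 and 5.08 at 7 days. Of AW112010, AU020206, Mir142hg and Gm14005, the last passed the test at 2 days (1.03, SE 0.24, adjusted p = 0.0015, limma), and its change at 7 days was 2.24 (SE 0.24, adjusted p = 6.5e-08, limma). Its neighbour Bcl2l11, which encodes the death-promoting protein Bim, changed by 0.24 at 7 days (adjusted p = 0.079, limma).

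AW112010, AU020206, Mir142hg and Gm14005 were still higher than sham at 4 weeks after reversal, the 4 of 7 on the list that were, where 28.9% of all genes were higher. Gm42418 (0.34), Gm26917 (0.25) and 1810058I24Rik (-0.18) did not pass that test. With the values as deposited, 6 of the 7 were called higher there, as were 8101 of all 14785 genes. The difference was 2.18 (SE 0.20, adjusted p = 2.8e-08, limma) for AW112010, 2.16 (SE 0.17, adjusted p = 3.6e-09, limma) for AU020206, 2.19 (SE 0.34, adjusted p = 1.6e-05, limma) for Mir142hg and 0.96 (SE 0.24, adjusted p = 0.0021, limma) for Gm14005. Between 7 days and R4W, Gm14005 fell to 1.57, 2.45, 1.09 and 1.07 (-1.28, SE 0.24, adjusted p = 0.00034, limma). The other 3 did not pass that test, with 0.04 for AW112010, 0.20 for AU020206 and -0.41 for Mir142hg. All 6 macrophage markers were higher than sham at 7 days and in R4W, and their sum was 61.7 to 94.2 in sham, 92.0 to 209 at 2 days, 834 to 972 at 7 days and 670 to 1266 in R4W, with none at 0. The 5 T cell markers summed to 2.07 to 3.84 in sham, 7.08 to 11.5 at 7 days and 13.5 to 23.6 in R4W. The 3 neutrophil markers measured summed to 1.14 to 1.90 in sham, 5.14 to 6.68 at 2 days (2 of 3 called higher), 9.69 to 15.3 at 7 days and 5.53 to 14.8 in R4W (3 of 3 at both). The part of these cell types in the members' levels was not tested.

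**Figure D3:**
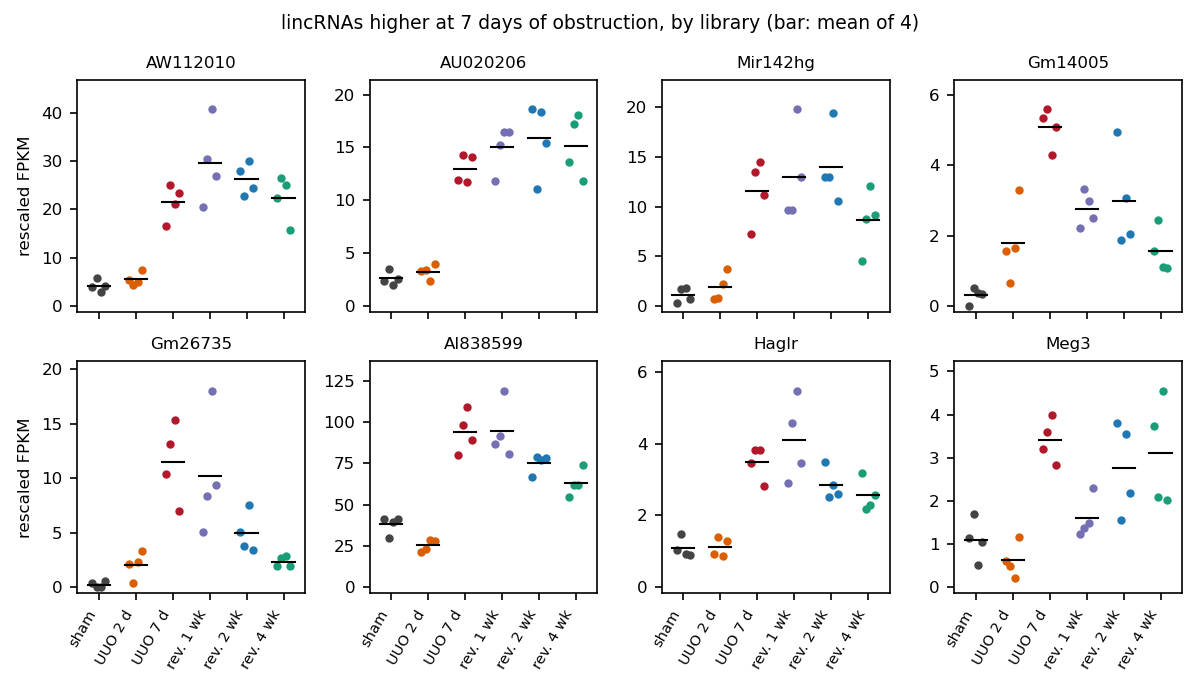
Rescaled FPKM (linear axes from 0) of 8 lincRNAs in the 4 libraries of each of 6 groups, with a bar at the group mean. In all 8 the 7 day libraries lie above every sham library, and in AW112010, AU020206 and Mir142hg the R4W libraries do too.

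Several risers had no place on that list. Gm26735 (chr13:28943048-28951671, plus strand) overlaps Sox4, a transcription factor gene of developing and injured epithelium, on the other strand. It stood at 0.379, 0, 0 and 0.533 in sham and at 10.4, 13.1, 15.3 and 6.95 at 7 days, with no overlap, a change of 3.31 (SE 0.33, adjusted p = 2.2e-08, limma). Sox4 changed by 2.09 at 2 days and by 1.67 at 7 days (adjusted p = 2.2e-06 and 9.2e-06, limma). AI838599 stood at 41.5, 29.9, 39.6 and 41.2 in sham, at 21.6, 23.2, 28.7 and 27.8 at 2 days and at 80.2, 98.2, 109 and 89.0 at 7 days. Every 2 day library was thus below every sham library (-0.57, SE 0.13, adjusted p = 0.0012, limma), and every 7 day library above (1.29, SE 0.13, adjusted p = 2.6e-08, limma). Eprn, known from embryonic stem cells, was higher at both times, going from 10.7, 11.0, 9.96 and 9.98 to 30.1, 22.7, 27.8 and 38.0 at 2 days (1.40, SE 0.12, adjusted p = 1.4e-08, limma) and 24.0, 26.1, 21.3 and 26.4 at 7 days (1.16, SE 0.12, adjusted p = 3.4e-08, limma). Bvht, known from heart development, changed by 1.07 (SE 0.16, adjusted p = 5.8e-06, limma) and the single-exon Gm26532 by 1.38 (SE 0.18, adjusted p = 6.3e-07, limma) at 7 days. At that time all 6 fibroblast and myofibroblast markers were higher, with sums of 38.1 to 81.6 in sham and 454 to 587 at 7 days. Of 4 endothelial markers 3 were higher, with sums of 52.1 to 87.1 and 100 to 107. The part of these cell types in the rises was not tested.

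All 7 members measured from the list of snoRNA hosts were higher at 7 days, where 36.5% of all genes were higher (median 0.68 on the log2 scale, against 0.01 over all genes). These transcripts carry in their introns snoRNAs, which guide modification of ribosomal and spliceosomal RNA, or the related RNAs of Cajal bodies. By vM21 at least 1 such small RNA gene lies inside each of the 7, and 5 lie inside Snhg12. The same annotation puts one inside 2 members that are not on the list, 2700038G22Rik (Snord93) and 2900076A07Rik (Mir1839, typed there as a Cajal body RNA), which were also higher, by 1.08 (SE 0.17, adjusted p = 8.5e-06, limma) and 0.44 (SE 0.09, adjusted p = 0.00023, limma). Snhg6 stood at 34.4, 36.3, 36.5 and 43.6 in sham, at 60.1, 46.3, 59.8 and 68.7 at 2 days and at 76.6, 74.8, 87.3 and 60.9 at 7 days. Both obstructed groups lay above every sham library, with changes of 0.62 (SE 0.16, adjusted p = 0.0024, limma) and 0.97 (SE 0.16, adjusted p = 1.1e-05, limma). Snhg18, with the pyrimidine run of 10, went from 29.2, 25.3, 27.4 and 29.7 to 44.6, 48.3, 52.4 and 44.2 at 7 days (0.74, SE 0.10, adjusted p = 9.4e-07, limma). Snhg12, with the run of 9, had the smallest change of the 7, 0.35 (SE 0.11, adjusted p = 0.0054, limma).

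At 2 days the hosts diverged, with 3 higher (Snhg6, Snhg18 and Epb41l4aos) and 1 lower, where 25.3% of all genes were higher and 25.5% lower. On the deposited scale 4 hosts were higher and none lower, where 4772 of all 14785 genes were higher and 2507 lower. The host called lower, Snhg20, stood at 52.2, 50.4, 49.1 and 59.2 in sham, at 36.8, 46.1, 37.2 and 48.5 at 2 days and at 89.8, 75.6, 95.9 and 79.5 at 7 days. Its 2 day libraries were all under the sham libraries and its 7 day libraries all above them. The fall at 2 days (-0.32, SE 0.12, adjusted p = 0.032, limma) was not called on the deposited scale (-0.19, adjusted p = 0.24, limma). It also lost its call without sham replicate 1 (adjusted p = 0.054, limma) or 4 (0.10) or UUO2 replicate 1 (0.11) or 3 (0.10). The rise at 7 days was 0.68 (SE 0.12, adjusted p = 4.1e-05, limma).

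By 4 weeks after reversal all 7 hosts on the list were lower than at 7 days, where 23.2% of all genes were lower. Snhg6 was at 34.9, 38.5, 36.6 and 32.5 (-1.04, SE 0.16, adjusted p = 4.2e-05, limma), which overlapped sham, and Snhg18 at 27.2, 32.2, 29.7 and 31.6 (-0.63, SE 0.10, adjusted p = 6.3e-05, limma). The call for Snhg10 (-0.40, SE 0.14, adjusted p = 0.023, limma) was lost without UUO7 replicate 1 (adjusted p = 0.050, limma) or 3 (0.052) or R4W replicate 1 (0.068). Against sham none of the 7 was called in R4W, with changes from -0.10 (Snhg12) to 0.27 (Snhg20). On the deposited scale 6 of the 7 were called higher there, as were 8101 of all 14785 genes, with changes from 0.26 (Snhg12) to 0.64 (Snhg20).

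Genes for proteins that package snoRNAs were read beside the hosts. Of 10 measured, 5 were higher at 7 days and 3 lower, near the 36.5% of all genes in each direction. On the deposited scale 8 were higher and none lower, where 8880 of all 14785 genes were higher. The core proteins of the box C/D class were among the 5: Fbl went from a mean of 44.6 to 61.9 rescaled FPKM, Nop56 from 26.5 to 44.6, Nop58 from 26.0 to 43.3 and Snu13 from 51.7 to 67.4. The remaining riser was Gar1, a core protein of the box H/ACA class, which had a mean of 18.7 in sham and 38.1 at 7 days. The 3 lower ones were Nop10 (mean 85.7 to 72.6) and Nhp2 (115 to 82.1), also core proteins of that class, and the assembly factor Naf1 (5.56 to 4.37). At 2 days 6 of the 10 genes were higher than sham and 1 lower, where 25.3% of all genes were higher and 25.5% lower. The deposited scale gave 7 and none there, beside 4772 and 2507 of all 14785 genes. Of the same 10 genes, 7 were lower in R4W than at 7 days, where 23.2% of all genes were lower. The 5 cycling-cell markers summed to 6.18 to 7.80 in sham, 39.5 to 85.1 at 2 days, 52.97 to 68.24 at 7 days, 27.1 to 36.2 in R1W and 13.6 to 26.9 in R4W. All 5 markers were called higher than sham at both obstruction times, and the hosts' calls are given earlier. Against 7 days, 4 of the 5 markers and none of the 7 hosts were called lower in R1W, where 7.14% of all genes were lower. In R4W all 5 markers and all 7 hosts were called lower than at 7 days. The part of cycling cells in the hosts' levels was not tested.

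Of 4 members measured from the list of microRNA hosts, 3 were higher at 7 days (Mir142hg, Meg3 and Mir17hg) and Ftx was lower, where 36.5% of all genes were called in each direction. By RefSeq coordinates 10 members hold a microRNA hairpin on their strand, these 4 and 6 that are not on that list. Of the 6, Snhg10, Snhg20, 2900076A07Rik and 6720427I07Rik (0.27, SE 0.12, adjusted p = 0.041, limma) were higher, E130102H24Rik was lower (-0.96, SE 0.14, adjusted p = 3.0e-06, limma) and 4833445I07Rik did not pass the test (-0.25, SE 0.12, adjusted p = 0.063, limma). Mir17hg, the precursor of the miR-17 to miR-92 cluster that Myc is known to induce, stood at 1.62, 1.45, 1.23 and 1.77 in sham and at 3.80, 3.53, 3.67 and 3.19 at 7 days (0.86, SE 0.16, adjusted p = 5.9e-05, limma). In R4W it stood at 1.81, 1.77, 2.50 and 2.12, under every 7 day library (-0.58, SE 0.16, adjusted p = 0.0054, limma), and the difference from sham did not pass the test (0.28, SE 0.16, adjusted p = 0.14, limma). Meg3, expressed from the maternal copy of an imprinted locus on chromosome 12, went from 1.14, 1.69, 0.507 and 1.04 to 3.20, 3.60, 3.99 and 2.83 (1.10, SE 0.23, adjusted p = 0.00024, limma). Meg3 was lower in R1W than at 7 days (-0.77, adjusted p = 0.031, limma). That call was lost without UUO7 replicate 1, 2 or 3 or R1W replicate 1 or 2. In R4W Meg3 was higher than sham (0.95, SE 0.23, adjusted p = 0.0014, limma), with 3.74, 2.08, 4.55 and 2.03 in the 4 libraries. Its difference between R1W and R4W (0.63) did not pass the test. Ftx, a transcript of the X-inactivation centre, had 2.51, 2.10, 2.43 and 2.42 in sham and 1.77, 2.20, 1.31 and 1.99 at 7 days. Its change of -0.27 (SE 0.08, adjusted p = 0.0077, limma) turned to 0.06 on the deposited scale.

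Of 10 microRNA processing genes, 2 were higher at 7 days and 5 lower, beside 36.5% of all genes in each direction. On the deposited scale 7 were higher and none lower, where 8880 of all 14785 genes were higher and 2632 lower. Dgcr8, a partner of the nuclear enzyme Drosha, went from a mean of 6.58 to 10.4 and was higher under both scalings. Among 6 imprinted coding genes measured, 3 were higher (Cdkn1c, Peg3 and Grb10) and 2 lower (Kcnq1 and Igf2r) at 7 days, also near 36.5% in each direction. The deposited scale gave 4 and 1, beside the same 8880 and 2632 of all genes.

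Malat1, an abundant RNA of nuclear speckles, separated the 2 day libraries from all others. It stood at 1190, 952, 1020 and 1140 rescaled FPKM at 2 days and at 211, 164, 205 and 199 in sham, and the other 20 libraries ran from 129 to 280. The difference at 2 days was 2.46 (SE 0.14, adjusted p = 1.9e-11, limma), and at 7 days it did not pass the test (0.26, SE 0.14, adjusted p = 0.093, limma). The authors' deposited table gives a smaller difference for Malat1 at 2 days, a log2 fold change of 1.49, and the cause of the gap was not tested. AC161763.1 (chr7:144914470-144914637, plus strand) is named Bc1 in vM21, a short RNA polymerase III transcript best known from neurons. It was listed at 0 in all sham, UUO7 and R1W libraries and stood at 65.9, 57.0, 66.9 and 87.7 at 2 days. It was at 0.93 in R2W replicate 4 and at 1.10 in R4W replicate 4, and at 0 in the other R2W and R4W libraries. Gm42428, a single exon of 302 bases, stood at 219, 185, 151 and 103 at 2 days, at 33.5, 19.4, 58.0 and 50.0 in sham and at 5.67, 16.0, 2.54 and 13.5 at 7 days. It was above sham at 2 days (2.06, SE 0.50, adjusted p = 0.0019, limma) and below it at 7 days (-2.13, SE 0.50, adjusted p = 0.00075, limma), with no overlap in either case.

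Malat1, AC161763.1 and Gm42428 moved with other features of the 2 day libraries. Rows typed as microRNA summed to 1537 to 1756 rescaled FPKM at 2 days and 489 to 936 in the other 20 libraries, beside the mitochondrial ribosomal RNA given earlier. Neat1 and Malat1 together made up 27.8% to 35.3% of the members' FPKM at 2 days and 12.3% to 22.2% elsewhere. That share contains Malat1 itself, so it is no separate feature. Members at or above 1 rescaled FPKM numbered 270 to 287 at 2 days and 287 to 334 elsewhere. For these members, what sets the 2 day libraries apart cannot be told apart from the time point.

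**Figure D4:**
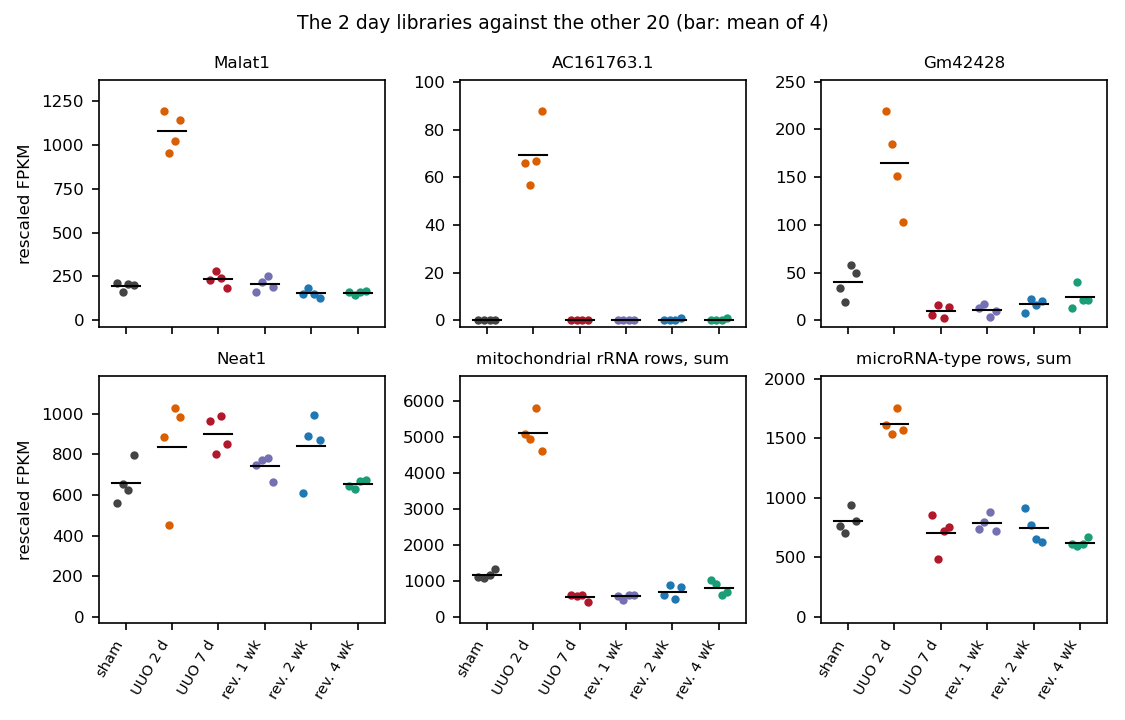
Rescaled FPKM (linear axes from 0) of 4 lincRNAs and of the summed mitochondrial ribosomal RNA and microRNA-type rows in the 4 libraries of each group, with a bar at the group mean. Malat1 lies between 952 and 1190 in the 2 day libraries and between 129 and 280 in the others, while Neat1 at 2 days overlaps the other groups.

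Neat1, the scaffold of paraspeckles, had the highest mean of all members over the 24 libraries. It stood at 560, 653, 625 and 796 in sham, at 885, 454, 1030 and 983 at 2 days, at 966, 803, 990 and 850 at 7 days and at 644, 629, 667 and 672 in R4W. Every 7 day library was above every sham library, and the change was 0.46 (SE 0.19, adjusted p = 0.035, limma). The call was lost without sham replicate 1 (adjusted p = 0.10, limma), 2 (0.056) or 3 (0.071) or UUO7 replicate 1 (0.077) or 3 (0.085). Of 14 genes for paraspeckle and speckle proteins, 10 were higher at 7 days and none lower, where 36.5% of all genes were higher. On the deposited scale all 14 were higher, as were 8880 of all 14785 genes. Nono went from a mean of 74.1 in sham to 117 at 7 days, Sfpq from 42.3 to 72.8 and Nudt21 from 10.5 to 22.0, all of them paraspeckle proteins.

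A set of members lies at the ribosomal RNA locus that the table places on chromosome 17. Gm26917 (chr17:39843013-39846341, plus strand) lies beside the row CT010467.1 (chr17:39846353-39848827, minus strand), which is typed as ribosomal RNA, and Gm42418 (chr17:39846958-39848788, plus strand) and AY036118 (chr17:39847113-39848035, minus strand) lie within it. AY036118 stood at 820, 851, 315 and 311 at 7 days and at 2040, 382, 411 and 152 in R4W, and was called in no comparison. CT010467.1 stood at 3200, 672, 719 and 298 in R4W, so that replicate 1 was highest and replicate 4 lowest for both. Gm42418, on the other strand, went from 161, 173, 159 and 238 in sham to 501, 460, 627 and 523 at 7 days (1.54, SE 0.18, adjusted p = 1.7e-07, limma). Gm26917 changed by 0.59 (SE 0.23, adjusted p = 0.023, limma) at 7 days, a call lost without sham replicate 1 (adjusted p = 0.061, limma), sham replicate 3 (0.073) or UUO7 replicate 1 (0.064). Both Gm42418 and Gm26917 are among the 6 called on the myeloid and lymphoid list, and their reads cannot be told apart here from reads of ribosomal RNA.

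Members beside developmental and growth genes were compared with those genes. Lhx1os lies 125 bases from Lhx1, a transcription factor gene of kidney development. It stood at 38.3, 33.3, 38.0 and 37.7 in sham and at 21.0, 16.7, 23.3 and 17.8 at 7 days (-0.88, SE 0.19, adjusted p = 0.00040, limma), and Lhx1 changed by -2.08 (adjusted p = 1.0e-07, limma). Between 7 days and R4W, Lhx1 changed by 1.25 (adjusted p = 0.00031, limma) and Lhx1os by 0.08 (SE 0.19, adjusted p = 0.75, limma). Pantr1, 926 bases from the nephron transcription factor gene Pou3f3, stood at 33.8, 32.2, 30.7 and 35.3 in sham and at 19.0, 18.1, 18.7 and 14.7 at 7 days (-0.88, SE 0.20, adjusted p = 0.00045, limma), which missed the threshold on the deposited scale (-0.41, adjusted p = 0.051, limma). Pou3f3 changed by -0.62 (adjusted p = 0.00066, limma).

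Haglr overlaps Hoxd3 in the HoxD cluster, on the other strand. It went from 1.04, 1.47, 0.938 and 0.905 to 3.45, 3.83, 3.83 and 2.83 (1.10, SE 0.14, adjusted p = 6.3e-07, limma), and Hoxd3 changed by 0.95 (adjusted p = 0.00019, limma). Pvt1, 47612 bases from the growth regulator gene Myc on chromosome 15, moved against it. It stood at 4.30, 3.66, 3.97 and 3.69 in sham and at 2.39, 2.77, 2.98 and 3.11 at 7 days, a change of -0.37 (SE 0.13, adjusted p = 0.016, limma) that turned to 0.01 on the deposited scale and lost its call without UUO7 replicate 1 (-0.31, adjusted p = 0.057, limma). Myc went from a mean of 2.80 to 25.7 rescaled FPKM (2.83, adjusted p = 1.2e-08, limma). Over all members whose nearest coding gene is in the table, both were called at 7 days in 26 of 44 overlapping pairs, 45 of 98 pairs within 5 kb and 75 of 134 pairs farther apart. At that time 70.1% of members and 75.2% of coding genes were called, so that many pairs with both called are no result about neighbours. The direction was the same in 16, 34 and 46 of the pairs called. Of members 113 were higher and 133 lower at 7 days, and of coding genes 4943 and 4881. Whether neighbours share a direction more often than unrelated pairs was not tested.

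Few members changed in the first week after reversal. Between UUO7 and R1W, 40 were called, 32 higher (7.26% of all genes were higher) and 8 lower (7.14%), where 14.4% of all genes were called. The deposited scale gave 27 higher and 11 lower, where 956 of all genes were higher and 1189 lower. The number was 15 without UUO7 replicate 1, 21 without UUO7 replicate 3, 25 without UUO7 replicate 4 and 19 without R1W replicate 4. Members that had fallen led the rises. D630029K05Rik stood at 54.2, 23.4, 37.4 and 55.0 (1.61, SE 0.28, adjusted p = 0.0021, limma), above every 7 day library and under every sham library. AC153937.2 changed by 1.75 (SE 0.28, adjusted p = 0.00098, limma), 1110019B22Rik by 1.24 (SE 0.23, adjusted p = 0.0033, limma), Tmem61 by 1.24 (SE 0.20, adjusted p = 0.00098, limma) and Gm44386 by 0.95 (SE 0.19, adjusted p = 0.0044, limma). Among the lower ones, Gm42031 went from 299, 358, 341 and 325 to 184, 155, 213 and 125 (-0.99, SE 0.24, adjusted p = 0.011, limma), with no overlap.

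At 4 weeks after reversal 142 members differed from 7 days, 74 higher (25.1% of all genes) and 68 lower (23.2%), where 48.3% of all genes were called. The median member changed by 0.01, against 0.02 over all genes. The deposited scale gave 62 higher and 90 lower, where 2604 of all genes were higher and 4551 lower. Tmem61 was at 6.36, 6.70, 7.96 and 8.21, which overlapped sham (1.92 against 7 days, SE 0.20, adjusted p = 1.5e-06, limma), and Bsnd changed by 2.13 over the same interval (adjusted p = 1.3e-05, limma). Gm12121 went from 0.525, 1.04, 0.932 and 1.31 at 7 days to 6.76, 7.59, 9.36 and 8.54 (2.22, SE 0.31, adjusted p = 2.8e-05, limma), above every sham library (5.83, 5.06, 4.46 and 4.79), though its difference from sham did not pass the test (0.58, SE 0.31, adjusted p = 0.12, limma). Gm26735 fell to 1.97, 2.64, 2.84 and 1.93 (-1.85, SE 0.33, adjusted p = 0.00022, limma), still above all sham libraries, while Sox4 changed by -0.29 (adjusted p = 0.39, limma).

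Between 1 and 4 weeks after reversal 46 members were called, 7 higher (8.67% of all genes) and 39 lower (8.60%), where 17.3% of all genes were called. The number was 13, all lower, without R1W replicate 3, 28 without R4W replicate 1, and 6 when only the groups compared entered the fit. Of the 7 snoRNA hosts on the list 6 were lower, among them Snhg6 (-0.73, SE 0.16, adjusted p = 0.0074, limma) and Snhg18 (-0.55, SE 0.10, adjusted p = 0.0033, limma), which passed in every fit that left out one library. R1W replicate 3 stood above the other R1W libraries for Snhg6, Dancr and Epb41l4aos. Without it the adjusted p (limma) was 0.079 for Epb41l4aos, 0.12 for Snhg10, 0.16 for Snhg12 and 0.23 for Snhg20. Other single libraries ended 3 of these calls too. For Snhg10 the adjusted p (limma) was 0.062 without R1W replicate 1, 0.056 without R1W replicate 2, and 0.10, 0.064 and 0.071 without R4W replicates 1, 2 and 4. For Snhg12 it was 0.082 and 0.088 without R4W replicates 1 and 2. For Snhg20 it was 0.089, 0.088, 0.064 and 0.11 without R4W replicates 1 to 4, and 0.060 with the replicate block. With only the groups compared in the fit none of the 6 was called, with an adjusted p from 0.057 (Snhg10) to 0.15 (Snhg20, limma). Eprn fell from 24.5, 23.8, 24.8 and 23.0 to 13.2, 13.1, 12.5 and 14.9 (-0.80, SE 0.12, adjusted p = 0.0012, limma), with no overlap.

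At 4 weeks after reversal 180 members differed from sham, 75 higher (28.9% of all genes) and 105 lower (31.1%), where 60.1% of all genes were called. The median member was at -0.08, against -0.01 over all genes. On the deposited scale, which puts the median gene 0.30 higher, 131 members were higher and 45 lower. Of all genes, 8101 were higher and 1710 lower on that scale. D630029K05Rik stood at 63.8, 46.9, 54.0 and 84.2, above every 7 day library and under every sham library (-1.36, SE 0.28, adjusted p = 0.00032, limma). The same order of groups held for 0610006L08Rik, at 10.3, 7.82, 10.0 and 11.7 against 27.7, 21.1, 27.2 and 27.6 in sham (-1.30, SE 0.24, adjusted p = 8.5e-05, limma), and for AC159622.2 (-1.41, SE 0.30, adjusted p = 0.00040, limma). Gm33104 stood at 1.85, 4.12, 3.60 and 3.26, which overlapped the 7 day libraries (3.96, 2.87, 4.02 and 2.60) and lay under sham (-1.26, SE 0.27, adjusted p = 0.00042, limma). Proximal tubule markers summed to 2511 to 3563 in R4W, above the 7 day range and under the sham range, and their part in these differences was not tested.

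**Figure D5:**
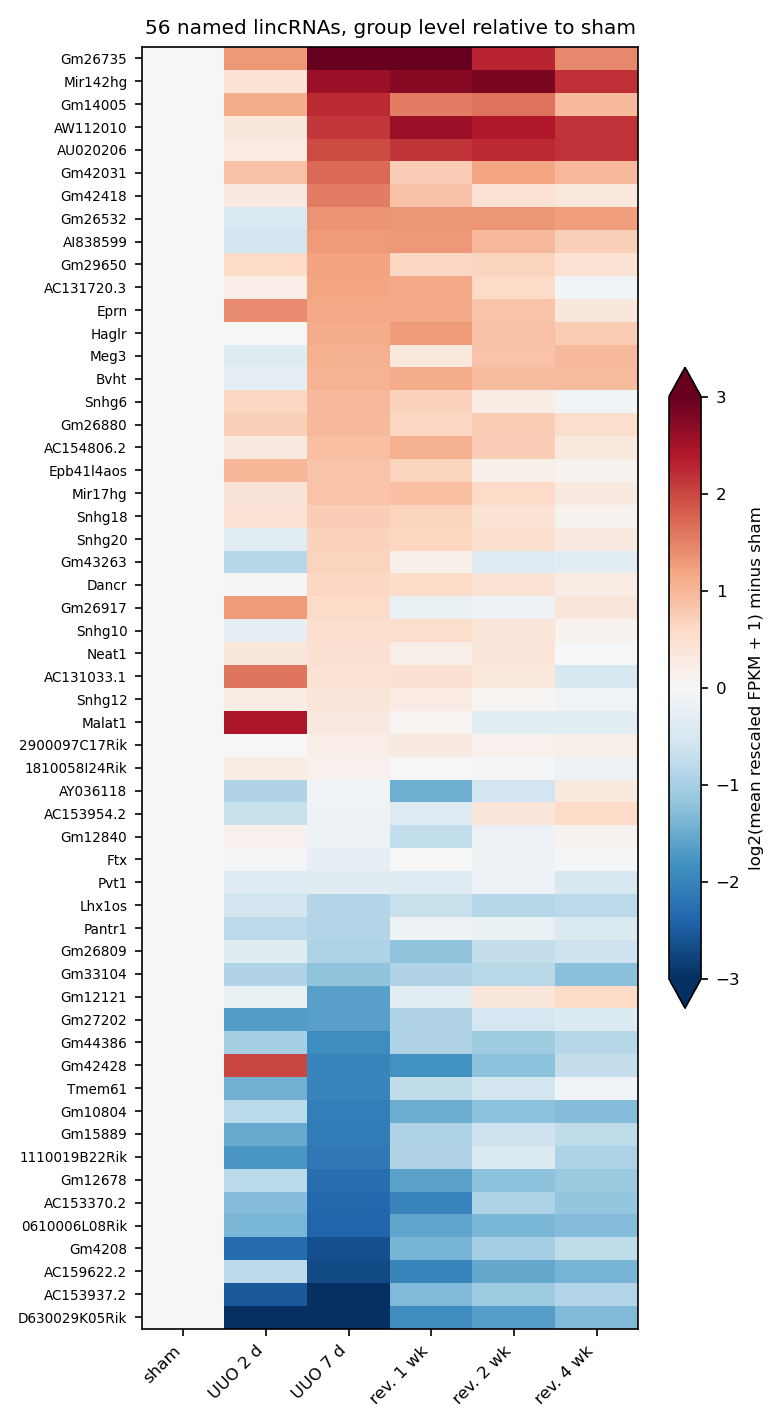
Group levels of 56 named lincRNAs (rows) in 6 groups (columns), as log2(mean rescaled FPKM + 1) minus the sham value, from -3 (blue) to 3 (red) with more extreme values in the end colours. AC161763.1, at 0 in sham, is left out, rows are ordered by the 7 day value, and Malat1 stands out in the 2 day column.

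The calls were set beside the authors' deposited table of comparisons. At an adjusted p under 0.05 the authors' deposited table holds 52 members higher and 132 lower at 2 days against sham, where 50.3% of all genes pass there, and 108 higher and 122 lower at 7 days, where 72.8% pass. Between 2 and 7 days the authors' deposited table holds 116 higher and 79 lower (61.1% of all genes). At 1 week after reversal against UUO7 the authors' deposited table holds 40 higher and 19 lower (21.1%), for R4W against UUO7 69 and 71 (52.7%), and for R4W against R1W 11 and 31 (17.5%). For R4W against sham the authors' deposited table holds 75 higher and 103 lower (64.9%). No member was called in opposite directions by the authors' deposited table and by limma in any of the 7 comparisons.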

How the data were processed

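Bulk RNA-seq of 24 mouse kidneys, 4 per group, was read from 1 deposited table of 14785 genes. The authors deposited values taken here as FPKM (the table names no unit, and it was inferred from the values), with log2 fold changes and adjusted p-values for 15 comparisons. FastQC, RSEM, Bowtie2, DESeq2 and mm10 are named per the submitters' processing notes, and whether counting used strand is not given in the sources used here. Read depth is unknown, so no counting interval can be given. Each gene averages at least 1 deposited FPKM, so members under that level were not seen.

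Libraries were scaled to a common median: every value was divided by the geometric mean of its gene over the 24 libraries, and the median of these ratios in a library (genes above 0 in all) was its divisor. This was done because the deposited scale puts the median gene 0.42 higher (log2) at 7 days than in sham. limma 3.58.1 (R 4.3.3, empirical Bayes with trend) was fitted to log2(rescaled FPKM + 1) over all 24 libraries and tested on simulated data. P-values were Benjamini-Hochberg adjusted over 14785 genes and called under 0.05. Tables were handled with Python 3.11.15 (numpy 2.4.6, pandas 2.3.3). Groups came from the titles. The p-values cover the spread between mice within these groups. GENCODE vM21 supplied structures and neighbours.

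Named members were those on 7 role lists, up to 5 higher and 5 lower per comparison with the greatest change among called members whose groups did not overlap and whose mean over both groups was at least 5, and the 5 of highest mean. The members and lists were chosen with earlier results of these data known. Alternatives were the deposited scale, pseudocounts of 0.1 and 10, a mean of at least 5, a change of at least 1, only the groups compared, a replicate block, leaving out each library or the UUO2 group, and R4W replicate 2 placed in R2W. R2W entered as levels only.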

Additional observations from a re-analysis of the deposited data

Results flagged for a closer look

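In 342 checks of 57 named members within groups of 4 libraries, 22 had 1 library far from the other 3, where chance flags about 1 in 20, or 17.1 here. They fell in 10 libraries.

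In UUO2 replicate 2, 2900097C17Rik stood at 46.0 (the other 3 at 38.1 to 39.3), Mir17hg stood at 1.05 (the other 3 at 2.51 to 2.81), Gm4208 stood at 3.00 (the other 3 at 0.715 to 1.08), Gm27202 stood at 5.98 (the other 3 at 1.54 to 1.80) and Tmem61 stood at 4.54 (the other 3 at 1.40 to 1.56). In UUO7 replicate 3, 2900097C17Rik stood at 51.5 (the other 3 at 44.6 to 45.4). In R4W replicate 2, 2900097C17Rik stood at 44.3 (the other 3 at 46.6 to 46.8). In R1W replicate 3, Snhg6 stood at 90.6 (the other 3 at 50.0 to 53.7), Dancr stood at 24.6 (the other 3 at 16.0 to 16.9), Epb41l4aos stood at 52.2 (the other 3 at 31.6 to 34.8), AY036118 stood at 63.5 (the other 3 at 264 to 289) and Gm26880 stood at 505 (the other 3 at 211 to 241). In sham replicate 2, Lhx1os stood at 33.3 (the other 3 at 37.7 to 38.3), Gm42031 stood at 163 (the other 3 at 76.4 to 87.6), AI838599 stood at 29.9 (the other 3 at 39.6 to 41.5) and 0610006L08Rik stood at 21.1 (the other 3 at 27.2 to 27.7). In R2W replicate 4, AC161763.1 stood at 0.930 (the other 3 at 0). In R4W replicate 4, AC161763.1 stood at 1.10 (the other 3 at 0) and Gm4208 stood at 12.6 (the other 3 at 3.43 to 4.36). In UUO2 replicate 4, Gm26532 stood at 7.32 (the other 3 at 3.84 to 4.21). In R4W replicate 3, Gm15889 stood at 9.03 (the other 3 at 10.4 to 10.6). In R4W replicate 1, AY036118 stood at 2040 (the other 3 at 152 to 411). Proximal tubule markers in UUO2 replicate 2 summed to 3902, against 2607 to 3180 in the other 2 day libraries, and the ribosomal row CT010467.1 stood at 3200 in R4W replicate 1 and at 322 in R1W replicate 3.

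For 4 named members every 2 day library moved one way from sham and every 7 day library the other, on the log2 scale: Snhg20 (-0.32 at 2 days, 0.68 at 7 days, a difference of 1.00), Gm42428 (2.06 at 2 days, -2.13 at 7 days, a difference of -4.19), AI838599 (-0.57 at 2 days, 1.29 at 7 days, a difference of 1.85) and Gm43263 (-0.86 at 2 days, 0.66 at 7 days, a difference of 1.52). The difference was tested by limma between the groups at 2 and 7 days, and what sets the 2 day libraries apart cannot be told apart from time there.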

How the results depend on the processing

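In the order UUO2 against sham, UUO7 against sham, UUO7 against UUO2, R1W against UUO7, R4W against UUO7, R4W against R1W and R4W against sham, the number of members called was 64, 78, 56, 20, 50, 20 and 56 among the 100 members with a mean of at least 5, and 45, 100, 54, 8, 32, 6 and 40 with a change of at least 1; fewer members can pass either by construction. With only the groups compared in the fit it was 6 for R4W against R1W, and the cause was not tested. Leaving out each library in turn gave 154 to 192, 229 to 246, 190 to 203, 15 to 46, 113 to 138, 13 to 58 and 153 to 187. The R1W numbers under the main count by over 1.5 times were 15 (without UUO7 replicate 1), 21 (UUO7 replicate 3), 25 (UUO7 replicate 4) and 19 (R1W replicate 4), and for R4W against R1W 13 (R1W replicate 3) and 28 (R4W replicate 1). The pseudocounts of 0.1 and 10, the deposited scale and leaving out the UUO2 group kept every count they could give within 1.5 times, as did placing R4W replicate 2 in R2W (131, 36 and 164 for the R4W comparisons).

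With the replicate block the counts were 178, 245, 203, 36, 139, 43 and 181. Same-numbered libraries were also correlated in their deviations from the group means. In no comparison were all 4 pairs above 0.1 (lowest -0.29, highest 0.46). Between UUO7 and R1W, 2 pairs were above 0.1 and the mean was 0.15. With 4 libraries per group these correlations cannot exclude a pairing.

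Of 223 called results of named members, 169 were called in every fit that left out one library, and 157 kept their direction and call under every alternative except the fold minimum. On the deposited scale 199 were the same, 21 lost their call and 3 reversed: Ftx in UUO7 against sham (0.0615) and in UUO7 against UUO2 (0.0110), and Pvt1 in UUO7 against sham (0.00919), each near 0 there.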
